A study of Mus musculus with 30 samples.

Results

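The genes described here are 7 small heat shock protein genes of skeletal muscle, Hspb1, Hspb2, Hspb3, Hspb6, Hspb7, Hspb8 and Cryab, together with the co-chaperone gene Bag3. They were chosen by name, with earlier results of these data known, and 1 row was kept per gene symbol. All 8 were among the 12030 genes tested of 56951 gene symbols in the deposited tables. Poly(A)-enriched RNA was sequenced from the gastrocnemius muscle, with the plantaris left attached, and each of the 14 LD and 16 ADV mice gave 1 library. All animals were wild-type C57BL/6J males with a running wheel, 14 weeks old at the start and 78 weeks old at the end, and both groups had spent 2 weeks in constant darkness before the schedules began. LD mice stayed on a fixed light-dark cycle for 64 weeks, whereas the cycle of ADV mice was advanced by 8 h every 4 days, a model of chronic jet lag. Tissue of both groups was taken in the daytime over several hours, and sampling times of single mice were not analysed here. The read pairs counted on exons ranged from 18875468.5 to 28512674 per library, and the libraries within each group differed by more than sampling noise. Genes of fast fibers, myosins and troponins among them, were abundant in every library, with a summed level of 10 such genes between 56940 and 81840 FPKM, the read count scaled to exon length and library total. Of these 10 genes edgeR called 0 between the groups (median log2 difference -0.04).

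Small heat shock proteins share an alpha-crystallin domain, form oligomers and hold unfolding proteins without the use of ATP, until ATP-driven chaperones of the HSP70 family refold them. In striated muscle they bind the cytoskeleton and the Z-disc, the structure that anchors actin filaments, and several are more abundant in slow, oxidative fibers. BAG3 joins HSPB8 to HSP70 and directs damaged filamin to autophagy, a route named chaperone-assisted selective autophagy. Genes of the heat shock response carry heat shock elements, inverted repeats of a short unit to which the factor HSF1 binds.

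Hspb1 and the HSP70 gene Hspa1b were related in ADV mice in the data below, a relation that did not pass in LD mice. For this reason the bases just before the start of 4 genes are given first. They come from the GRCm39 genome and the canonical GENCODE vM39 transcripts. Whether these bases bear on the relation was not tested. Each line holds the 150 bases before the annotated start, 5′ to 3′ on the strand of the gene, for Hspb1 (chr5:135916610-135916759, plus strand), Cryab (chr9:50664037-50664186, plus strand), Bag3 (chr7:128125133-128125282, plus strand) and Hspa1b (chr17:35178215-35178364, minus strand). Capitals mark heat shock element pairs, that is GAANNTTC or TTCNNGAA.
Hspb1: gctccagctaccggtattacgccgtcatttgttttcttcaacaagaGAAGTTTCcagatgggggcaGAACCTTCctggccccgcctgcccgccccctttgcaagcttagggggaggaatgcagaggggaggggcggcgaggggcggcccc
Cryab: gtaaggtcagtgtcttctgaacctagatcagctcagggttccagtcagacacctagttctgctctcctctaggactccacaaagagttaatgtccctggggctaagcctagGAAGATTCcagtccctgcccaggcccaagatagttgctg
Bag3: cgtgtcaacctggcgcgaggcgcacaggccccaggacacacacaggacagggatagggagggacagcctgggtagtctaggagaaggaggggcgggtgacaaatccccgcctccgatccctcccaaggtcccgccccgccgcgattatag
Hspa1b: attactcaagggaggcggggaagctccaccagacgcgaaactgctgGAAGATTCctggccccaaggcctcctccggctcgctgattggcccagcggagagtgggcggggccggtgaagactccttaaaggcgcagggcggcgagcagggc

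Hspb1 held 2 such pairs, 104 to 97 and 84 to 77 bases before its start, and Hspa1b held 1 at 104 to 97 bases. In the 300 bases before the start, both strands searched and overlaps allowed, 4 of the 8 genes held a pair (Hspb1, Hspb2, Hspb3 and Cryab), whereas 13.5% of 11957 promoters of tested genes held one. A triplet of alternating units was found in 0.477% of these promoters and in 0 of the 8 genes. The E-box CACGTG, the site of the clock factors BMAL1 and CLOCK, was present in 8.69% of the promoters and in 0 of the 8 genes. TATAAA was found in 9.59% of the promoters and in 1 of the 8, Hspb3, at 11 to 6 bases before the start. These matches are letters in a window and not measured sites.

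Hspb2 and Cryab lie head to head on chromosome 9, with 328 bases between their canonical starts. The pair of Cryab, GAAGATTC at 39 to 32 bases before its start, and the pair of Hspb2, GAATCTTC at 297 to 290 bases before its start, are the same 8 bases (chr9:50664148-50664155) read on opposite strands. The row of Cryab in the deposited tables (chr9:50662625-50667936, plus strand, 4 exons) begins upstream of the canonical start, and 252 of its exon bases, 22.6%, lie in an exon of Hspb2. Of the exon bases of the Hspb2 row (chr9:50662378-50663593, minus strand, 2 exons), 433 or 56% lie in exons of Cryab isoforms. The kit kept the strand of the RNA, but no source used here says whether the counting used it, so reads of this pair may have been shared between its genes. The other rows were Hspb1 at chr5:135916773-135918417, Hspb3 at chr13:113799432-113800212, Hspb6 at chr7:30252693-30254868, Hspb7 at chr4:141148090-141152622, Hspb8 at chr5:116546550-116560923 and Bag3 at chr7:128125340-128148705. In the same way 429 exon bases of Bag3 (16.7%) overlapped the antisense noncoding gene 4921520J07Rik, and 224 of Hspb8 (12.3%) overlapped antisense Gm42009. For Myh7, the slow myosin gene that serves as a reference below, 2332 exon bases (38.0%) overlapped the antisense noncoding gene Mhrt.

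Cryab and Hspb6 were among the most abundant transcripts of the muscle. By mean FPKM over the 30 mice, a level per length, Cryab ranked 54 and Hspb6 ranked 57 of 12030 genes, at 666 and 589.5 FPKM. Hspb8 at 268 FPKM and Hspb7 at 259 FPKM followed, then Hspb1 at 131 FPKM, Bag3 at 67.8 FPKM, Hspb2 at 51.9 FPKM and Hspb3 at 17.5 FPKM. The order of most neighbours held in nearly all mice, with Hspb6 above Hspb8, Hspb1 above Bag3 and Hspb2 above Hspb3 in 30 of 30. It did not hold for Hspb8 and Hspb7, since Hspb8 was the higher in 11 of 14 LD mice but in 4 of 16 ADV mice. Cryab was above Hspb6 in 7 of 14 LD mice and in 14 of 16 ADV mice. The mean count per library ran from 333.5 reads for Hspb3 to 19570 reads for Hspb6.

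To examine whether the genes differed between the schedules, edgeR's quasi-likelihood test was applied to the counts of all genes, with Benjamini-Hochberg adjustment (FDR). At an FDR under 0.05, 6 of the 8 had a higher level in ADV mice and 0 a lower one, whereas 5.61% of all genes tested were higher by the same rule. Hspb1, Cryab, Bag3, Hspb7, Hspb6 and Hspb2 passed, and Hspb3 and Hspb8 did not. Leaving out 1 mouse at a time ended the call of Hspb6 in 20, of Hspb2 in 19 and of Hspb7 in 8 of 30 fits, and that of Hspb1, Cryab and Bag3 in 0. With the fold change over 1.3 that the study used for its differentially expressed genes, 4 of the 8 passed (Hspb1, Hspb7, Cryab and, at 1.301-fold, Bag3), beside 1.45% of all genes. The median log2 fold change of the 8 genes was 0.35, and that of all genes 0.00. Over bulk muscle a difference in the number of cells of a type and a difference in RNA per cell cannot be told apart.

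**Figure D1:**
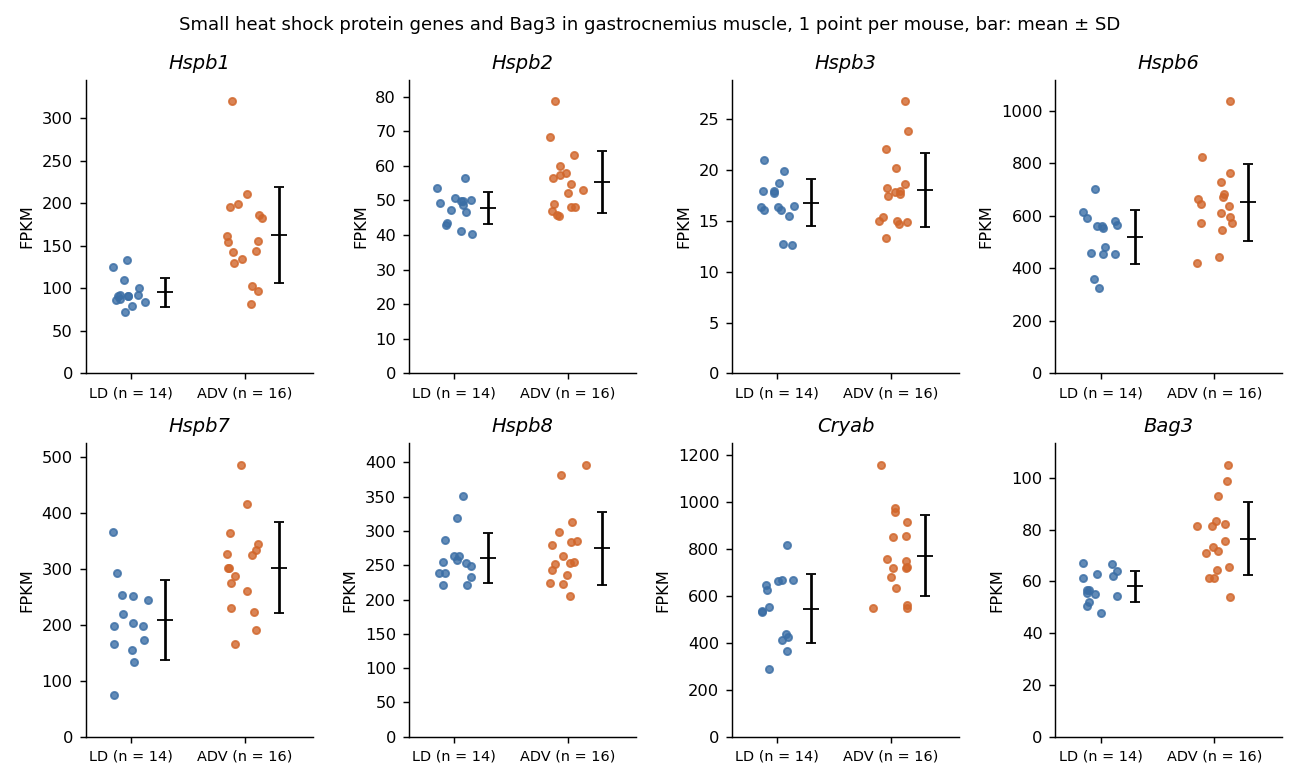
FPKM of each gene in each mouse (y axis, from 0), LD mice in blue (n = 14) and ADV mice in orange (n = 16), with the mean and SD beside the points. For Hspb1, 12 of 16 ADV mice lie above every LD mouse, and for Bag3 11 of 16. The count is 7 for Hspb2, 6 for Cryab, 4 for Hspb6, 3 for Hspb3, 2 for Hspb7 and 2 for Hspb8.

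Among the stress-induced members, Hspb1 showed the largest difference. Its product, HSP27, binds actin filaments and is phosphorylated under stress. In LD mice Hspb1 was at 72.4 FPKM at the lowest, 91.4 FPKM at the median and 134 FPKM at the highest (95.5 ± 17.0, mean ± SD, n = 14). In ADV mice these levels were 81.2, 155.5 and 320 FPKM (162.5 ± 56.5, n = 16), with ADV mouse 25 the highest and ADV mouse 22 the lowest. The groups overlapped, but 15 of 16 ADV mice were above the LD median and 12 were above every LD mouse. The fold change was 1.69, or 0.75 ± 0.14 on the log2 scale (± standard error, as for every rise on this scale below, edgeR FDR 0.00152).

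Bag3, the co-chaperone, was at 47.6, 56.6 and 67.0 FPKM (lowest, median and highest) in LD mice (58.0 ± 6.08, n = 14) and at 54.1, 74.3 and 105 FPKM in ADV mice (76.4 ± 14.1, n = 16). Of 16 ADV mice, 15 exceeded the LD median of Bag3 and 11 its highest LD mouse, and ADV mouse 24 was the highest. On the log2 scale Bag3 rose by 0.38 ± 0.08 (edgeR FDR 0.00337). Hspb8, which encodes the small heat shock protein bound by BAG3, did not pass the test. Hspb8 was at 221, 255 and 350 FPKM in LD mice (261 ± 36.5) and at 205, 259 and 396 FPKM in ADV mice (274.5 ± 53.2), so the ranges overlapped in most mice, with 2 ADV mice above and 1 below every LD mouse. The log2 difference of Hspb8 was 0.05 (standard error 0.08, edgeR FDR 0.678). The ratio of Bag3 to Hspb8 FPKM had a median of 0.229 in LD mice (0.136 to 0.303) and 0.288 in ADV mice (0.192 to 0.445).

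Cryab, Hspb7 and Hspb6 encode abundant proteins of the contractile apparatus. Cryab encodes alpha-B-crystallin, which binds desmin and titin, and its level was 288, 544 and 815 FPKM (lowest, median and highest) in LD mice (545 ± 146, n = 14). It was 548, 737 and 1158 FPKM in ADV mice (771.5 ± 171, n = 16). Each of the 16 ADV mice exceeded the LD median of Cryab and 6 exceeded every LD mouse, with LD mouse 36 the highest of its group. Cryab rose by 0.49 ± 0.12 on the log2 scale (edgeR FDR 0.0113). Hspb7, whose product binds filamin C, was at 74.4, 200.5 and 366 FPKM in LD mice (209 ± 71.8) and at 167, 302 and 486 FPKM in ADV mice (302 ± 81.5). Of its 16 ADV mice, 14 were above the LD median and 2 above LD mouse 36, the highest of the LD group, while LD mouse 23 was far below the others. The rise of Hspb7 was 0.51 ± 0.16 on the log2 scale (edgeR FDR 0.0347). Hspb6, which encodes HSP20, was at 324, 557 and 704 FPKM in LD mice (519 ± 102) and at 422, 642 and 1035 FPKM in ADV mice (651 ± 147). Here 13 of 16 ADV mice were above the LD median and 4 above the highest LD mouse. The rise of Hspb6, 0.31 ± 0.10 on the log2 scale, passed by a narrow margin (edgeR FDR 0.0488).

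The products of Hspb2 and Hspb3 form a complex with each other, and that of Hspb2 also binds the kinase DMPK. Hspb2 was at 40.4, 49.0 and 56.4 FPKM in LD mice (47.9 ± 4.6, n = 14) and at 45.5, 54.0 and 78.6 FPKM in ADV mice (55.3 ± 9.0, n = 16). The ranges overlapped, with 10 of 16 ADV mice above the LD median and 7 above every LD mouse, and ADV mouse 34 was the highest. Hspb2 rose by 0.19 ± 0.06 on the log2 scale (edgeR FDR 0.0469), a smaller value than that of its neighbour Cryab. The ratio of Cryab to Hspb2 FPKM had a median of 10.9 in LD mice and 14.5 in ADV mice. Hspb3 was at 12.7, 16.4 and 20.99 FPKM in LD mice (16.8 ± 2.33) and at 13.3, 17.8 and 26.7 FPKM in ADV mice (18.1 ± 3.65). Its log2 difference was 0.08 (standard error 0.08, edgeR FDR 0.516).

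Slow fibers and heat shock level were set beside these differences. Myh7, the slow myosin, varied more between mice than between groups, at 3.88, 44.7 and 91.7 FPKM (lowest, median and highest) in LD mice and at 15.7, 50.4 and 233 FPKM in ADV mice. Its log2 difference was 0.46 (standard error 0.37, edgeR FDR 0.416). The summed FPKM of 10 slow fiber genes was 75.5 to 1329 in LD mice (median 798) and 369 to 2561 in ADV mice (median 1058), and their median log2 difference was 0.45, but edgeR called 0 of the 10. Myl2 and Myl3, slow myosin light chains and the most abundant of the list, were at log2 differences of 0.29 (edgeR FDR 0.552) and 0.50 (FDR 0.224). With log2 Myh7 as a covariate, edgeR called 3 of the 8 genes higher in ADV mice (Hspb1, Cryab and Bag3), beside 2.85% of all genes. The log2 fold change then fell from 0.51 to 0.30 for Hspb7 (FDR 0.0911), from 0.31 to 0.17 for Hspb6 (FDR 0.164) and from 0.49 to 0.33 for Cryab (FDR 0.0253), and it was 0.70 for Hspb1 (FDR 0.00899). The rows of the 8 genes had a GC content of 50.1 to 60.5%. With a library-wise GC content trend as an offset, Hspb1, Cryab and Bag3 were called, beside 2.44% of all genes, and the log2 fold change of Hspb2 fell to 0.06 (FDR 0.469).

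**Figure D2:**
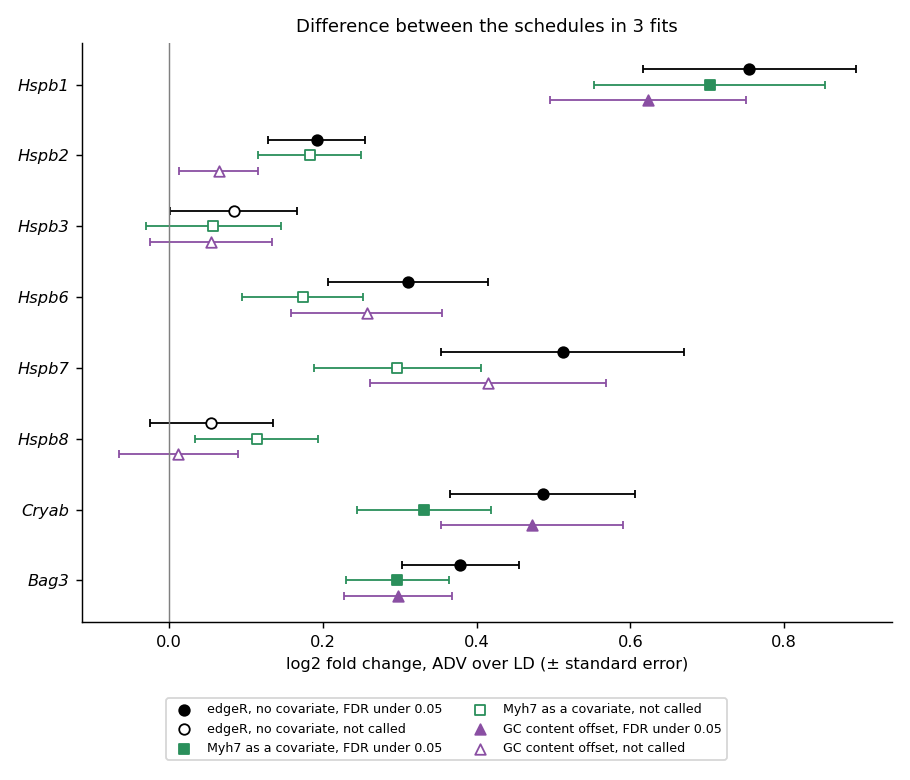
Log2 fold change of ADV over LD (x axis) with its standard error for each gene (y axis) in 3 edgeR fits, filled symbols having an FDR under 0.05. Hspb1, Cryab and Bag3 are filled in all 3 fits, Hspb2, Hspb6 and Hspb7 only in the fit with no covariate, and Hspb3 and Hspb8 in none.

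With log2 Hspa1b as a covariate 0 of the 8 genes passed edgeR's test. Hspb2 and Bag3, 2 of the 8, had an unadjusted p under 0.05, as did 1633 of the 12030 genes tested. In that fit 0.0416% of all genes were called higher, so the 0 is no result about these genes. The log2 fold change was 0.23 for Hspb1 (standard error 0.11, edgeR FDR 0.380) and 0.20 for Bag3 (FDR 0.312). Hspa1b, an inducible HSP70 gene, was at 0.488, 1.06 and 3.18 FPKM (lowest, median and highest) in LD mice and at 1.09, 3.44 and 48.8 FPKM in ADV mice. Every ADV mouse exceeded the LD median of Hspa1b and 8 exceeded its highest LD mouse (log2 fold change 2.67, edgeR FDR 0.00221), so this covariate is closely tied to the group. With a score of clock genes as a covariate, 0 of the 8 passed as well, beside 0.0% of all genes, and 5 of the 8 had an unadjusted p under 0.05 (Hspb1, Hspb2, Hspb7, Cryab and Bag3), as did 1572 of all genes. In that fit the log2 values were 0.77 for Hspb1, 0.67 for Hspb7, 0.50 for Cryab and 0.41 for Bag3. They were 0.28 for Hspb6, 0.19 for Hspb2, 0.07 for Hspb8 and -0.02 for Hspb3. The standard errors were larger than without the score (0.20 for Hspb1), and this 0 is no result about these genes either. How closely the score is tied to the group is not given here.

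The relation of each gene to Myh7 was then measured within the groups, as a slope on log2(Myh7 FPKM + 0.1) in 1 edgeR fit of all libraries. A slope of 0.28 means a difference of 0.28 in the log2 level of a gene for each doubling of Myh7. In LD mice 3 of the 8 genes had a slope above 0 at an FDR under 0.05, beside 2.02% of all genes. They were Hspb7 at 0.28 (standard error 0.06, FDR 0.00511), Cryab at 0.19 (0.04, FDR 0.0136) and Hspb6 at 0.14 (0.04, FDR 0.0350). In ADV mice 4 of the 8 did so, beside 1.4% of all genes, namely Hspb7 at 0.39 (0.09, FDR 0.0151), Cryab at 0.29 (0.07, FDR 0.0199), Hspb6 at 0.29 (0.06, FDR 0.00782) and Bag3 at 0.20 (0.05, FDR 0.0370). The slope of Hspb1 was -0.03 in LD mice (FDR 0.850) and 0.33 in ADV mice (standard error 0.11, FDR 0.109). In LD mice the slopes of Bag3 (0.07, FDR 0.215) and Hspb8 (-0.09, FDR 0.246) did not pass. The difference of the slopes between the groups passed for 0 of the 8 genes and for 0.0% of all genes by edgeR, with 1132 genes at an unadjusted p under 0.05, Hspb1 (0.00591) and Hspb6 (0.0410) among them. limma also called 0 of the 8.

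Single mice decided whether these slopes passed. LD mice 23 and 33 had little Myh7 (3.88 and 9.76 FPKM), and without LD mouse 23 edgeR called 0 of the 8 slopes in LD mice and without LD mouse 33 it called 1. ADV mouse 24 had by far the most Myh7 (233 FPKM) and ADV mouse 22 the least of its group. Without ADV mouse 24 the count in ADV mice was 0 and without ADV mouse 22 it was 1, although the slope of Hspb7 was 0.46 without mouse 24 (FDR 0.163). The share of all genes called in these fits is not given here, so these counts are not read as results about the 8 genes alone.

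Pearson's r of log2(FPKM + 0.1) with Myh7 was 0.773 for Hspb7 in LD mice (Spearman's rho 0.578) and 0.871 in ADV mice (rho 0.800). The p of these r, by 100000 permutations and adjusted over 32 relations of the 8 genes with both references in both groups, was 0.00518 and 0.000640. Without the 2 mice farthest from the median of Myh7, r was 0.636 and 0.739. For Cryab r was 0.711 in LD mice (rho 0.609, adjusted permutation p = 0.0158) and 0.838 in ADV mice (rho 0.768, adjusted p = 0.000640), and 0.853 and 0.726 without those mice. Hspb6 had r of 0.725 and 0.826 with Myh7 in LD and ADV mice (rho 0.692 and 0.729, adjusted permutation p = 0.0151 and 0.00256), and r of 0.815 and 0.596 without those mice. Bag3 had r of 0.741 and 0.676 (rho 0.732 and 0.497, adjusted permutation p = 0.0122 and 0.0151), and in ADV mice r was 0.306 without mice 22 and 24, so that relation rested on them. Hspb8 went the other way in LD mice, at r = -0.657 (rho -0.543, adjusted permutation p = 0.0348 for r and 0.106 for rho), -0.467 without mice 23 and 27, and r = -0.02 in ADV mice. The mice with the least Myh7 in the LD group, 23 and 27, were among those with the most Hspb8 (319 and 287 FPKM), after mouse 28 at 350 FPKM. LD mouse 33, the next lowest in Myh7 at 9.76 FPKM, had 239 FPKM of Hspb8, below the LD median of 255 FPKM. In all 32 relations an adjusted permutation p under 0.05 was reached by r in 5 of LD mice and 6 of ADV mice, and by rho in 3 and 5. By rho it was not reached for Hspb7 (0.0993) and Cryab (0.0745) with Myh7 in LD mice, nor for Bag3 in ADV mice (0.106).

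**Figure D3:**
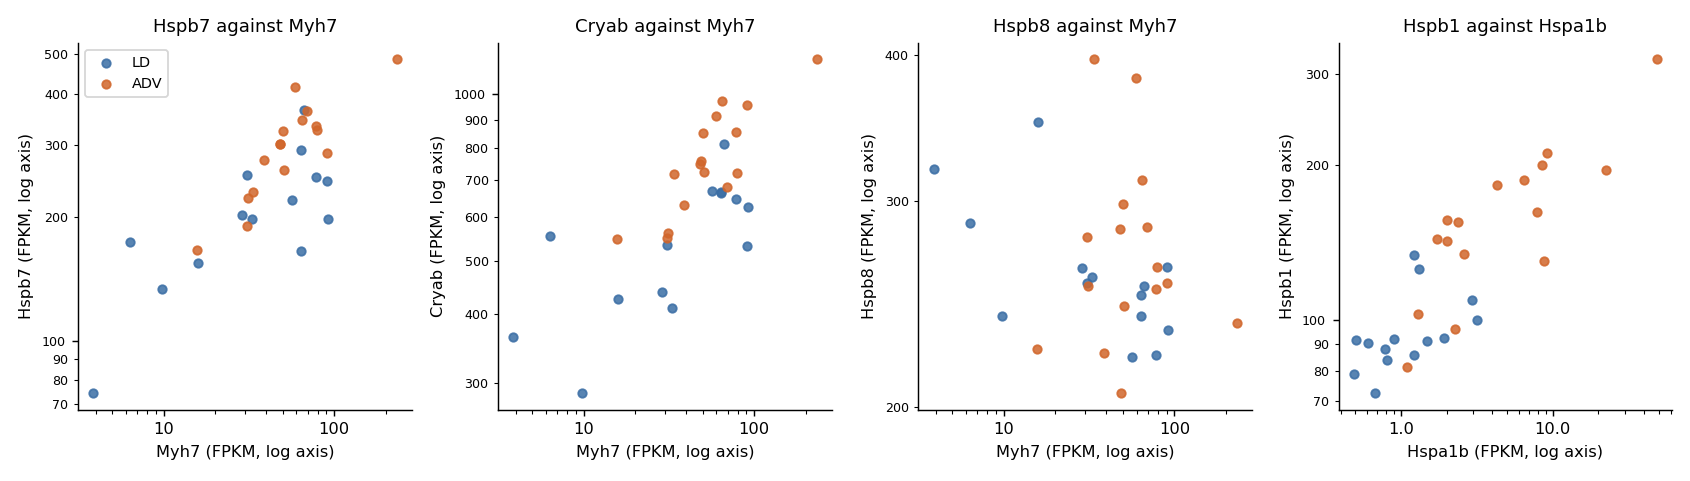
Scatter plots of Hspb7, Cryab and Hspb8 against Myh7 and of Hspb1 against Hspa1b, 1 point per mouse, FPKM on log axes, LD in blue and ADV in orange. Hspb7 and Cryab rise with Myh7 in both groups (r from 0.711 to 0.871). Hspb8 has r = -0.657 with it in LD mice, where its edgeR slope did not pass (FDR 0.246). The ADV mouse with the most Hspa1b, at 48.8 FPKM, has the most Hspb1.

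Against Hspa1b, the members parted differently. In ADV mice the slope of Hspb1 on log2(Hspa1b FPKM + 0.1) was 0.27 (standard error 0.04, edgeR FDR 9.88e-05), and it was the 1 of 8 genes that passed, beside 1.5% of all genes. Bag3 followed at 0.11 (standard error 0.03, FDR 0.0797), and it passed when ADV mouse 21 (FDR 0.0346) or ADV mouse 26 was left out. Cryab was at 0.11 (standard error 0.05, FDR 0.411), and the slopes of Hspb2, Hspb3, Hspb6, Hspb7 and Hspb8 lay between -0.01 and 0.08. Hspa1b spanned 0.488 to 3.18 FPKM in LD mice and 1.09 to 48.8 FPKM in ADV mice, and whether this bears on the slopes was not tested. Of the 8 slopes in LD mice 0 passed with edgeR or limma, beside 1.21% of all genes by edgeR. The smallest unadjusted p by edgeR was 0.0592, for Hspb3. By correlation Hspb3 and Hspa1b had a rho of 0.71 in LD mice (adjusted permutation p = 0.0310) and an r of 0.598 (adjusted p = 0.0578), 0.69 without mice 22 and 26. The slope of Hspb1 was 0.15 in LD mice (standard error 0.08, FDR 0.457). Its difference between the groups was 0.12 (standard error 0.09, FDR 0.901), and the difference passed for 0 of the 8 genes and for 0.0% of all genes by edgeR, with 888 genes at an unadjusted p under 0.05.

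In the ADV group Hspb1 and Hspa1b were related, though not in every mouse. ADV mouse 25 had 48.8 FPKM of Hspa1b and 320 FPKM of Hspb1, while ADV mouse 22, lowest in Hspa1b at 1.09 FPKM, was lowest in Hspb1 as well. ADV mouse 26 went against this, with 8.76 FPKM of Hspa1b but 130 FPKM of Hspb1, below the ADV median. Pearson's r was 0.825 (rho 0.762, permutation p of r adjusted over 32 relations = 0.00128), and 0.721 without mice 25 and 33, the 2 farthest from the median of Hspa1b. In the edgeR fit without the 2 mice of each group farthest from the median the slope no longer passed. In LD mice r was 0.497 (rho 0.631, adjusted permutation p = 0.137).

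The 8 genes also varied with each other. Over the 28 pairs, r ranged from -0.833 to 0.894 in LD mice (median 0.20), with 5 pairs at an adjusted permutation p under 0.05 over 56 relations by r and 4 by rho, and from -0.02 to 0.936 in ADV mice (median 0.52), with 13 such pairs by r and 7 by rho. The differences in r between the groups were not tested. Hspb6, Hspb7 and Cryab moved together in both groups. For Hspb6 and Hspb7 r was 0.850 in LD mice (rho 0.622, adjusted permutation p = 0.000840 for r and 0.0682 for rho) and 0.936 in ADV mice (rho 0.897, adjusted p = 0.000280). For Hspb6 and Cryab r was 0.894 (rho 0.851, adjusted permutation p = 0.000280) and 0.864 (rho 0.791, adjusted p = 0.000840). An adjusted p of 0.000280 corresponds to 1e-05, the smallest p that these permutations can give. For Hspb7 and Cryab r was 0.719 in LD mice (rho 0.622, adjusted permutation p = 0.0185 for r and 0.0682 for rho) and 0.827 in ADV mice (rho 0.744, adjusted p = 0.00104). These relations kept r of 0.615 or more without the 2 mice farthest from the median. Hspb6, Hspb7 and Cryab were each related to Myh7 as well, and what part Myh7 has in their relations with each other was not tested.

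Hspb1 and Bag3 were related in ADV mice, with r = 0.829 (rho 0.815, adjusted permutation p = 0.000840, 0.728 without mice 22 and 25) and in LD mice r was -0.0035 (rho -0.03, adjusted permutation p = 0.991). Hspb8 and Bag3, whose proteins form 1 complex, were inversely related in LD mice, at r = -0.833 (rho -0.829, adjusted permutation p = 0.000840, -0.746 without mice 23 and 28), and in ADV mice r was 0.338 (rho 0.465, adjusted permutation p = 0.303). Hspb2 and Hspb3 had r of 0.737 in ADV mice (rho 0.579, adjusted permutation p = 0.00861 for r and 0.0682 for rho) and 0.481 in LD mice (rho 0.393, adjusted permutation p = 0.154), and r was 0.497 and -0.127 without the 2 mice farthest from the median of Hspb2. The neighbours Hspb2 and Cryab were at r = 0.58 in LD mice (rho 0.437) and 0.440 in ADV mice (rho 0.406), with adjusted permutation p of 0.0777 and 0.155.

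**Figure D4:**
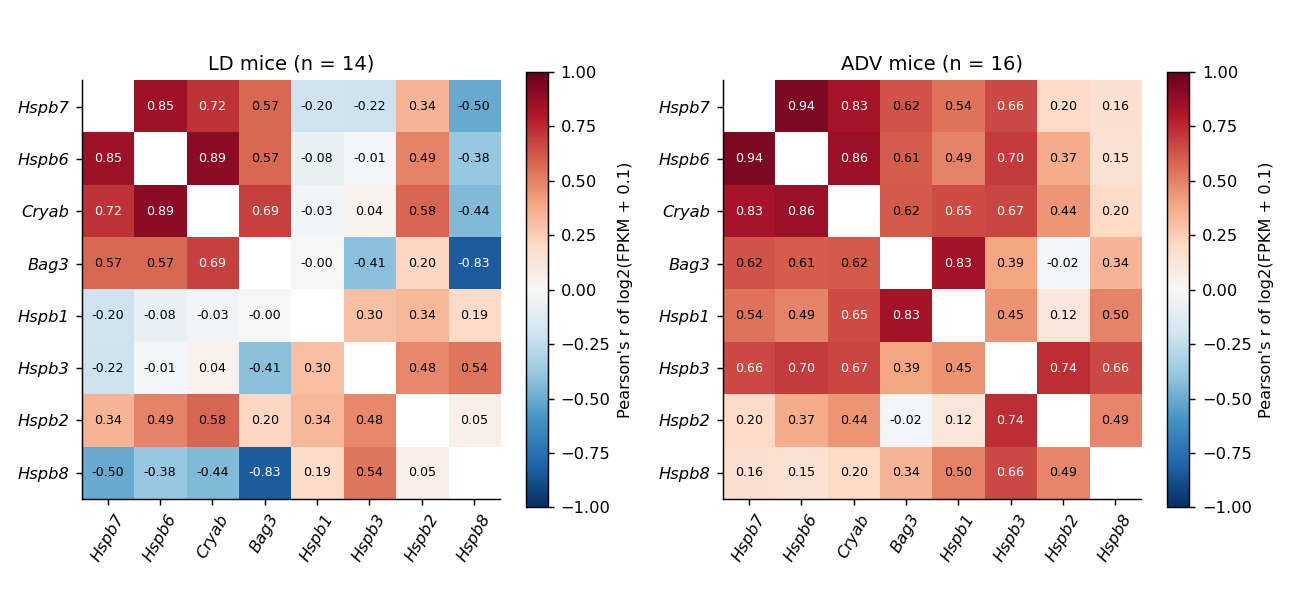
Pearson's r of log2(FPKM + 0.1) between the 8 genes within LD mice (left, n = 14) and ADV mice (right, n = 16), from blue at -1 to red at 1. Hspb7, Hspb6 and Cryab form a red block in both panels, Hspb8 and Bag3 are at -0.833 in LD mice, and Hspb1 and Bag3 are at 0.829 in ADV mice.

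Of all tested genes, those most like each member were found by r of log2 CPM centred within groups over the 30 libraries, as a description. Hspb7 was most like Ankrd2 (r = 0.922), a stretch-responsive ankyrin repeat gene, then Csrp3 (0.890), which encodes the muscle LIM protein of the Z-disc, and Hspb6 (0.878). Hspb6 was most like the myosin light chain gene Myl12a (0.902), Tpm2 (0.898), a tropomyosin, and Mrpl14 (0.889), of the mitochondrial ribosome. Cryab was most like Hspb6 (0.857), Pcp4l1 (0.854) and Ndufb3 (0.852), a subunit of respiratory complex I. The genes nearest to Hspb1 were Gm13889 (0.851), the fibronectin receptor subunit gene Itga5 (0.826) and Xirp1 (0.803), which encodes the actin-binding protein Xin. For Bag3 they were Ripor1 (0.803), Capn15 (0.782) and Alpk3 (0.767). Hspb2 was nearest to Ap1s1 (0.820), Mrps7 (0.800) and Taldo1 (0.793), Hspb3 to Ovca2 (0.778), Kcnj11 (0.773) and Ap1s1 (0.760), and Hspb8 to Aurka (0.831), Pdgfa (0.820) and Vasp (0.820).

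Partners of these proteins were counted in lists, which are read beside the 5.61% of all genes called higher. The lists overlap, with Flnc in 2 of them and Hspa8 in 2. Of 20 genes of the BAG3 complex and of chaperone-assisted selective autophagy, 2 were higher in ADV mice and 0 lower by edgeR, a count too close to that share to read as a result about the list, with a median log2 difference of 0.07. Flnc, which encodes filamin C, the client of that pathway, rose from 129 ± 23.8 to 199 ± 65.2 FPKM (log2 0.61, edgeR FDR 0.00729), and Hspa8, the constitutive HSP70, from 341 ± 39.3 to 421 ± 67.1 FPKM (log2 0.29, FDR 0.0103). Of 16 clients and Z-disc partners of small heat shock proteins, 5 were higher and 0 lower (median log2 0.09), Flnc again among them. Csrp3 rose the most, from 101 ± 48.5 to 237 ± 102 FPKM (log2 1.22, edgeR FDR 0.00540). Lmna, which encodes the nuclear lamins A and C, was at log2 0.35 (FDR 0.00152) and Dmpk at 0.27 (FDR 0.00429). Among 20 chaperones and HSF factors, 8 were higher and 0 lower (median log2 0.08), Hspa8 again among them. The largest were Hspa1b, Hspa1a (log2 2.41) and the J-domain genes Dnajb1 (1.11, edgeR FDR 0.0252) and Dnajb4 (0.61, FDR 0.00678). Hspa1a and Hspa1b are near-identical. Reads with a mapping quality under 10 were dropped, so reads of their shared stretches may be missing from both genes or exchanged between them. Of the 4 other small heat shock genes listed, 3 had a row (Cryaa, Hspb9 and Odf1) and 0 passed the filter on low genes, with mean levels of at most 0.0626 FPKM in either group.

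Markers of other cell types were read in the same libraries, in which 5.61% of all genes tested were higher and 5.2% lower. Of 5 smooth muscle genes, which mark another tissue that uses Hspb1, Hspb6 and Cryab, 1 was higher in ADV mice (Tagln, log2 0.29, edgeR FDR 0.0328), with a summed level of 40.4 to 71.6 FPKM in LD mice and 48.9 to 86.8 FPKM in ADV mice. Of 6 endothelial genes 2 were higher (Emcn, log2 0.27, FDR 0.00945, and Pecam1, log2 0.16, FDR 0.0323), with sums of 58.9 to 82.3 and 70.2 to 93.7 FPKM. Of 6 fibroblast genes 1 was lower (Pdgfra, log2 -0.24, FDR 0.0194), with sums of 266 to 345 and 230 to 364 FPKM. By edgeR 0 of 6 adipocyte genes were called (sums of 29.5 to 176 and 19.8 to 301 FPKM), and 0 of the 4 tested in each of the Schwann cell list (12.95 to 29.99 and 14.4 to 53.2 FPKM) and the leukocyte list (9.81 to 22.1 and 8.92 to 17.8 FPKM). The part of these cells in the differences of the 8 genes was not tested.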

How the data were processed

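The authors used Trimmomatic for trimming and STAR 2.7.10a for mapping to GRCm39, dropped reads with a mapping quality under 10, and counted reads on exons of UCSC known canonical transcripts with HOMER 4.11 (program versions from the submitters' processing notes). The deposited raw values are estimated counts, because each mate counts as 0.5 read, so 14.8% were not whole, and they were rounded here. The FPKM values deposited by the authors equal the count over exon length and library total to within 5.0e-04 FPKM. Rows numbered 57186, and the longest row with a mean over 20 reads was kept per symbol. The test covered genes averaging over 20 reads and over 0.5 FPKM.

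The main test was edgeR 4.0.16 (quasi-likelihood, TMM) in R 4.3.3, with DESeq2 1.42.0, the authors' tool, limma 3.58.1 and the Wilcoxon rank-sum test as alternatives. Slopes on Myh7 and Hspa1b used log2(FPKM + 0.1) centred within groups. Correlations used two-sided permutation tests with 100000 resamples (scipy 1.17.1). The GC content offset came from a natural spline (4 degrees of freedom) through genes averaging over 50 reads. The clock score was the mean z of 5 genes that peak with Bmal1 minus that of 8 genes that peak opposite to it. Scripts were tested on simulated counts. The 8 genes, the lists and the motifs were chosen with earlier results of these data known. From each list up to 4 called genes with the largest fold change are named, Hspa1b, Hspa1a and Flnc included. Genes with few reads, near 20, carry a large counting error. No protein sequence was used here.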

Additional observations from a re-analysis of the deposited data

How the results depend on the processing

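The number of the 8 genes higher in ADV mice was 6 with edgeR, DESeq2, other size factors, library size alone, a minimum of 100 reads and summing the rows of each symbol, 5 with limma and 4 with the Wilcoxon test. It was 3 with no filter on low genes, 3 with the GC content offset, 3 with Myh7 as a covariate, 0 with Hspa1b or the clock score as a covariate, fits in which few or no genes passed at all, and 3 without ADV mice 24 and 25 (chosen after seeing the data). Leaving out each mouse in turn gave 3 to 6, and 3 without LD mouse 27, 28, 30 or 33 or ADV mouse 24, 25 or 27. Hspb1, Cryab and Bag3 were called in all 30 of these fits, with FDRs up to 0.0230. Hspb7 lost its call without those mice or ADV mouse 32 (8 fits, FDR up to 0.0609), Hspb2 in 19 fits (up to 0.0784) and Hspb6 in 20 (up to 0.0849). All 30 kept the direction of each gene. The share of all genes called in these 30 fits is not given here.

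Leaving out each mouse gave 0 to 3 called slopes on Myh7 in LD mice, 0 to 4 in ADV mice, and 1 to 2 slopes on Hspa1b in ADV mice. In ADV mice the count on Myh7 was 0 without mice 24 and 25, and without the 2 mice of each group farthest from the median it was 0 on Myh7 and 0 on Hspa1b. The cause was not tested, but these fits held fewer mice, and the share of all genes called in them is not given here. Correlations with an adjusted p under 0.05 fell from 11 to 5 of 32 with the references and from 18 to 8 of 56 between the genes without the 2 farthest mice.

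It is not known whether equal numbers in the labels pair mice. Of 14 same-numbered pairs, 6 had a correlation of deviations over 0.1 (median 0.01, from -0.26 to 0.43). In 3 of the 14 the LD mouse was most like the ADV mouse of its own number. These values do not decide the question. With the label number as a block, 4 of the 8 genes were called (Hspb1, Hspb7, Cryab and Bag3). With the block and the GC content offset it was 2 (Hspb1 and Bag3). With the block 0 slopes on Myh7 passed in LD mice, 0 in ADV mice, and 0 on Hspa1b in ADV mice. The share of all genes called in these fits is not given here, so these counts are not read as results about the 8 genes.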
